A study of Mus musculus with 2 samples.

Results

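The 10 transcription factors examined here build and maintain lung cell lineages, and their RNA was measured in whole lungs carrying Lewis lung carcinoma (LLC) tumours. They were taken by name: the epithelial factors Nkx2-1, Foxa1, Foxa2, Gata6, Sox9 and Hopx, and the mesenchymal factors Foxf1, Tbx2, Tbx4 and Tbx5. All 10 were on the array, out of 18193 genes that could be named, and 18 probe sets read them. The lungs came from C57BL/6 mice, aged 6 to 8 weeks at injection, that had been given 500000 LLC cells in 200 µL through a tail vein and were examined on day 19. In the group named TDAG8 LLC lung the cells overexpressed TDAG8, the proton-sensing receptor encoded by Gpr65, and in Control LLC lung they carried the vector. Every mouse therefore carried a graft of LLC, a mouse lung carcinoma line that seeds the lung from the blood, and lungs without tumour cells were not analysed here. The labels do not say whether the transfected cells were 1 clone, and RNA of 10 lungs was pooled for each of the 2 arrays. Since a single array stood for each group, no difference could be tested or checked in a replicate, values have no error, and each difference describes these 2 pools only. Gpr65 itself was read by 1 probe set, with 73.9 in TDAG8 LLC lung and 32.3 in Control LLC lung, 2.38-fold higher. The control value was dim, and whether the difference came from the LLC cells was not tested. Defining markers of lung epithelium, Sftpc, Scgb1a1 and Ager, were among the bright genes of both arrays.

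Nkx2-1 is the homeodomain factor that marks the lung field of the foregut and later keeps alveolar and club cells differentiated, and it works with the forkhead factors Foxa1 and Foxa2 and the zinc finger factor Gata6 on surfactant and secretoglobin genes. Sox9 marks the growing tips of the embryonic airway tree and is also the master factor of cartilage, whereas Hopx, a small homeodomain protein that does not bind DNA, marks alveolar type 1 cells. In the surrounding mesenchyme, Foxf1 responds to hedgehog signals from the epithelium and is also needed by lung capillaries, and the T-box factors Tbx2, Tbx4 and Tbx5 regulate mesenchymal growth and branching. Several of these genes have other sites of expression: Gata6 in vascular smooth muscle and heart, and Tbx5, Tbx2 and Hopx in heart.

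RefSeq promoters (GRCm38.p6, 250 bases before to 50 after a transcript start) were examined for 5 of the factors, 8 promoters in all. No promoter of Gata6, Sox9, Foxf1, Tbx2 or Tbx5 was examined. Both strands were searched for short core motifs of the factors' own families: CAAGTG for Nkx2-1, TGTTTA for forkhead factors, AGATAA for GATA factors and AGGTGT for T-box factors. The 3 windows that held a match are shown, because there the motif of a factor's family stands in the promoter of a factor. Capitals mark the match.
Foxa1, chr12:57546062-57546361, minus strand: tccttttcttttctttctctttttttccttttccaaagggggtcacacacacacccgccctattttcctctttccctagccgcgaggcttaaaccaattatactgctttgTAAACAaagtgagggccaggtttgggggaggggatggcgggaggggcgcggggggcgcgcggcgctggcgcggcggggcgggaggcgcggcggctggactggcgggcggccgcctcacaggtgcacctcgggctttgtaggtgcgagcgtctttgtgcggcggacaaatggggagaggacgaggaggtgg
Foxa2, chr2:148045415-148045714, minus strand: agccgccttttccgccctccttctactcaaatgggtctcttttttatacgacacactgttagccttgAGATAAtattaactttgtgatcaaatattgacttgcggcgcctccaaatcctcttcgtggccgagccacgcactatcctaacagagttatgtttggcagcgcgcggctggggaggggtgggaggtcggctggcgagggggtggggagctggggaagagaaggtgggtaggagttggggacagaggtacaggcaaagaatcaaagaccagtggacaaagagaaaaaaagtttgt
Hopx, chr5:77095218-77095517, minus strand: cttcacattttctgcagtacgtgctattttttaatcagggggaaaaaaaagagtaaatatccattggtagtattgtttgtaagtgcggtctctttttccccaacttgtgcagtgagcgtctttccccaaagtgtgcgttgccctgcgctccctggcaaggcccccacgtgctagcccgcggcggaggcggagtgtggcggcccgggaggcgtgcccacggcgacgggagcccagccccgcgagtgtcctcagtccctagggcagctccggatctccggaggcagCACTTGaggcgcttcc
The Foxa1 window held the forkhead motif on its reverse strand, with its first base at -140 from the start. Of 3 Foxa2 windows 1 held the GATA motif, first base at -183, and 1 of 2 Hopx windows held the Nkx2-1 motif on the reverse strand, first base at 35 after the start. The windows of Nkx2-1 and Tbx4 held none of the 4 motifs. Of all 32851 RefSeq promoters 13.6% held CAAGTG, 13.4% TGTTTA, 11.2% AGATAA and 13.7% AGGTGT, and no motif overlapped another in the windows shown. The share of promoters with any of the 4 motifs was not computed. The 3 matches therefore do not show an excess over other promoters, and binding at them was not tested.

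Of the 10 factors 9 were lower in TDAG8 LLC lung and 1, Sox9, was higher. The ratios of those 9 lay in a narrow band, from 1.35-fold lower for Hopx to 1.68-fold lower for Foxa2, with a median of 1.61-fold lower. Epithelial and mesenchymal factors were lower by nearly the same amount. Values are intensities as deposited, and ratios are TDAG8 LLC lung over Control LLC lung after centring on the median of measured genes. A gene counted as measured where it exceeded the floor for dim signals, the 50th percentile of its array (24.3 in TDAG8 LLC lung and 26.3 in Control LLC lung), on at least 1 array. All 10 factors were measured, 9 on both arrays and Sox9 in TDAG8 LLC lung only. Of 11954 measured genes 50.1% had a log2 ratio below 0, against 9 of the 10 factors, and 15.7% had one at or below -0.5, against 8 of the 10. No factor reached 2-fold in either direction by its brightest probe set. Among all measured genes 1.22% were at least 2-fold lower and 5.4% at least 2-fold higher. In RNA of whole lungs, fewer cells of a type, a smaller share of their RNA in the pool and less RNA per cell cannot be told apart.

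**Figure D1:**
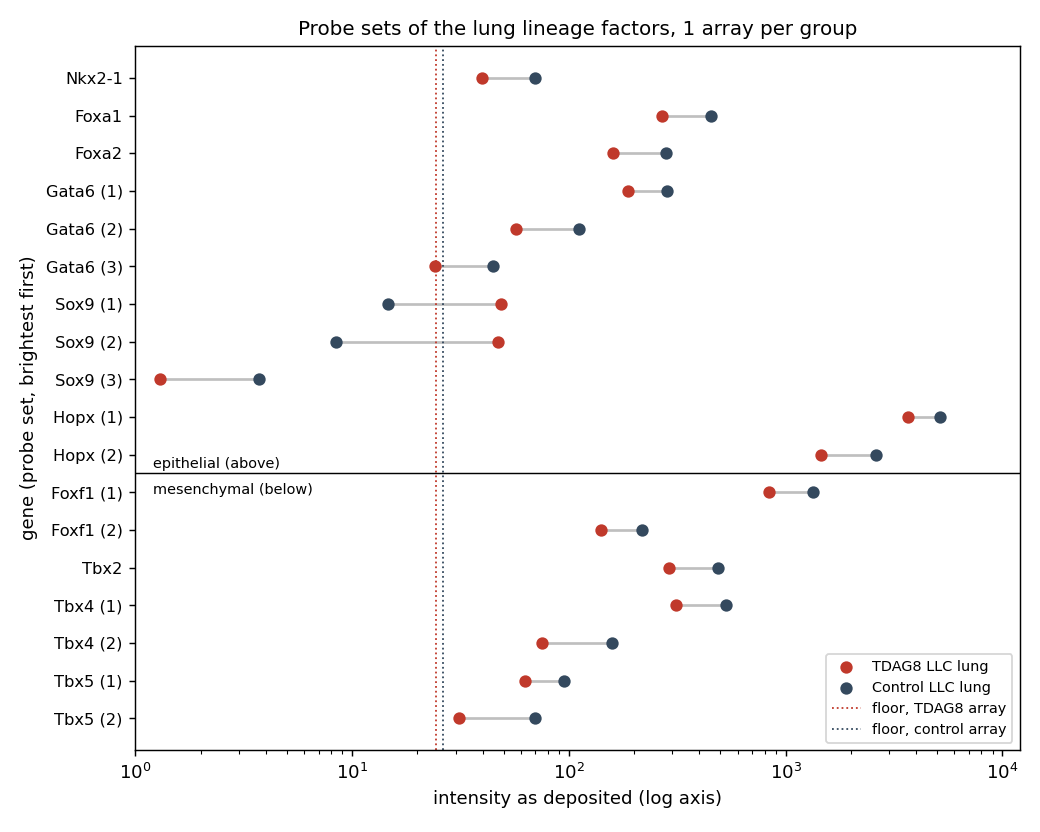
Intensity of each probe set (log axis) in TDAG8 LLC lung (red) and Control LLC lung (dark), 1 array per group, with the floor of each array as a dotted line. In 16 of the 18 probe sets the red point lies left of the dark one. These include the third Sox9 probe set, which lies below both floors and was not measured. The exceptions are the other 2 probe sets of Sox9, whose control values lie below the floor. Of the 17 measured probe sets 15 had a log2 ratio below 0, against 50.7% of all measured probe sets with 1 gene symbol.

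The factors that specify lung epithelium were lower together. Nkx2-1 had an intensity of 39.8 in TDAG8 LLC lung and 69.5 in Control LLC lung, a log2 ratio of -0.75, and 6.15% of measured genes had a lower ratio. It is read by 1 rather dim probe set. With the floor at the 65th percentile the TDAG8 value lay below it, and the ratio was then only bounded, at -0.177 or lower. Foxa1, a pioneer factor that opens chromatin for other factors, had 268 in TDAG8 LLC lung and 453 in Control LLC lung, a log2 ratio of -0.70. Its close relative Foxa2, needed for mature alveoli and for restraint of mucous cells, had 160 in TDAG8 LLC lung and 279 in Control LLC lung, a log2 ratio of -0.75. These 3 genes, with 1 probe set each, differed from each other by less than 0.1 on the log2 scale as reported. Some other settings set Nkx2-1 further from Foxa2. With loess centring Nkx2-1 was at -0.658 and Foxa2 at -0.77. With an offset in place of the floor Nkx2-1 was at -0.512 and Foxa2 at -0.664.

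Gata6, which acts in epithelial differentiation and also in smooth muscle and heart, was read by 3 probe sets, all lower in TDAG8 LLC lung. The brightest had 188 in TDAG8 LLC lung and 284 in Control LLC lung, a log2 ratio of -0.54. A second had 56.8 in TDAG8 LLC lung and 111 in Control LLC lung, a log2 ratio of -0.91. The third was above the floor in Control LLC lung only, where it had 44.4, and was at least 1.76-fold lower. Hopx, the alveolar type 1 marker, was lower by 2 probe sets that differed in size. The brighter one had 3665 in TDAG8 LLC lung and 5137 in Control LLC lung, a log2 ratio of -0.43, the smallest difference among the 9 lower factors. The other had 1458 in TDAG8 LLC lung and 2621 in Control LLC lung, a log2 ratio of -0.79. By their suffixes both Hopx probe sets can read more than 1 transcript, and Hopx has 2 annotated promoters. Which transcript each reads was not tested.

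Sox9 went the other way. Its brightest probe set had 48.5 in TDAG8 LLC lung and 14.6, below the floor, in Control LLC lung, so it was at least 1.92-fold higher. A second probe set, made from the same cDNA, had 47.3 in TDAG8 LLC lung and 8.4 in Control LLC lung and was at least 1.87-fold higher. The third was below the floor in both, with 1.3 in TDAG8 LLC lung and 3.7 in Control LLC lung. Of all measured genes 4.07% were above the floor in TDAG8 LLC lung only. For such a gene the floor largely fixes the sign of the ratio. With the floor at the 30th percentile the log2 ratio of Sox9 was 1.81, with both values then above it, and with the floor at the 65th percentile Sox9 was not measured. None of 12 cartilage genes, among them Col2a1 and Acan, was above the floor on either array.

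The mesenchymal factors were lower by all of their 7 probe sets. Foxf1 had 841 in TDAG8 LLC lung and 1332 in Control LLC lung by its brighter probe set, a log2 ratio of -0.61. Its second probe set had 141 in TDAG8 LLC lung and 217 in Control LLC lung, a log2 ratio of -0.56, so the probe sets differed by only 0.04. Tbx2, a repressor of cell cycle inhibitor genes in embryonic lung mesenchyme, had 290.3 in TDAG8 LLC lung and 488 in Control LLC lung, a log2 ratio of -0.69. Tbx4, whose lung enhancer is used to mark lung mesenchyme in mice, had 313 in TDAG8 LLC lung and 532 in Control LLC lung, a log2 ratio of -0.71. Its dimmer probe set had 75.5 in TDAG8 LLC lung and 158 in Control LLC lung and was 2.01-fold lower. Tbx5, which is needed for lung bud outgrowth and for the heart, had 62.4 in TDAG8 LLC lung and 94.6 in Control LLC lung, a log2 ratio of -0.54. Its dimmer probe set had 31.1 in TDAG8 LLC lung, just above the floor, and 69.9 in Control LLC lung, and was 2.16-fold lower. These 2 dimmer probe sets were the only ones of the 17 measured that passed 2-fold. In all, 15 of the 17 were below 0, against 50.7% of all measured probe sets with 1 gene symbol, of which 1.16% were at least 2-fold lower.

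The epithelial factors had a median log2 ratio of -0.62 with Sox9 at its bound and of -0.70 without it, and the mesenchymal factors had a median of -0.65. Over all measured genes the median was 0.00. The epithelial median was therefore 0.03 above the mesenchymal one with Sox9 and 0.05 below it without. Both differences were small beside the spread between probe sets of 1 gene. For the 5 factors that had a pair of probe sets bright enough on both arrays, the pair differed by 0.04 (Foxf1), 0.30 (Tbx4), 0.36 (Hopx), 0.37 (Gata6) and 0.57 (Tbx5). Over 4769 genes with several such probe sets the median range was 0.29, with quartiles of 0.14 and 0.50. The 9 lower factors together spanned 0.32. That span is close to the median range within a gene, so the order of the 9 among themselves has little weight. Of 11017 genes above the floor on both arrays, 13.2% had a ratio inside that band.

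**Figure D2:**
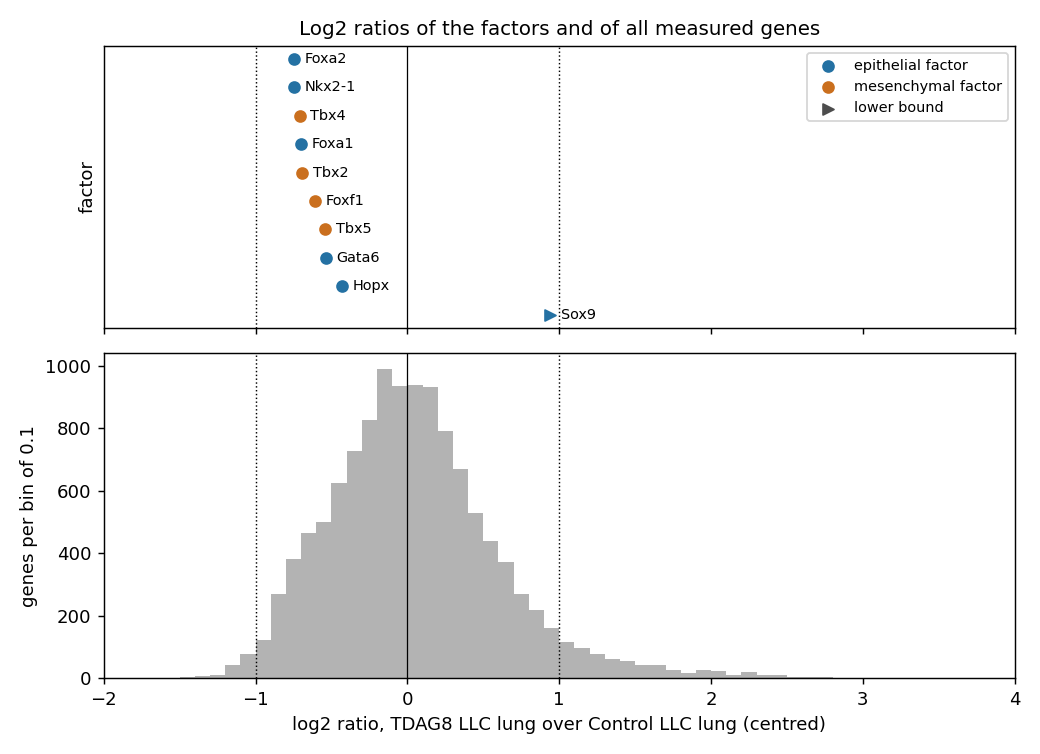
Log2 ratio of each factor (top; blue epithelial, orange mesenchymal, triangle for a lower bound) above the number of measured genes per bin of 0.1 on the same axis, with 2-fold as dotted lines. The 9 lower factors lie between -0.75 and -0.43, and epithelial and mesenchymal ones are intermixed; Sox9 is at 0.94 or higher.

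The nearest genes with a probe set on each side of a factor were read as well, a choice made after values had been seen. Fendrr, a long noncoding RNA transcribed next to Foxf1 in lung mesenchyme, had 196 in TDAG8 LLC lung and 357 in Control LLC lung, a log2 ratio of -0.81. Mthfsd, on the other side of Foxf1, had a log2 ratio of 0.57. Tbx2 and Tbx4 are neighbours on chromosome 11 and had log2 ratios of -0.69 and -0.71. Tbx3, separated from Tbx5 on chromosome 5 by 2 annotated genes, had 191 in TDAG8 LLC lung and 356 in Control LLC lung, a log2 ratio of -0.84. Its other probe sets above the floor were at -0.70 and -0.96. Rbm19, on the other side of Tbx5 with 5 genes between, was at 0.20. Mbip, with 3 genes between it and Nkx2-1, was at -0.03. Sstr4, a somatostatin receptor gene with 4 genes between it and Foxa2, was at -0.48. Mipol1, with 4 genes between it and Foxa1, was above the floor in TDAG8 LLC lung only, with a lower bound of 0.74. The other measured neighbours were above the floor on 1 array only. They were 9030622O22Rik by Foxa2, at -0.16 or lower, 2610027K06Rik by Tbx2, at -0.35 or lower, and Spink2 by Hopx, at 0.22 or higher. The floor largely sets the sign of these and of Mipol1. The remaining neighbours were below the floor on both arrays. Neighbours of the lower factors were thus found on both sides of 0.

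Other factors of lung epithelium were mostly lower, by a median close to that of the members. Of 28 listed, 24 were measured and 22 had a log2 ratio below 0, against 50.1% of all measured genes. The 22 include Rfx2 at its bound, and the median was -0.68. Nfib, a maturation factor and the brightest of the list, was at -0.71. Rfx2, a ciliogenesis factor, was below the floor in TDAG8 LLC lung and at least 2.04-fold lower, a sign largely set by the floor. Myb, active in developing ciliated cells and in blood progenitors, had 97.3 in TDAG8 LLC lung and 256 in Control LLC lung and was 2.52-fold lower. Its other measured probe sets were at -0.82 and, as a bound, -0.76. The 2 factors above 0, named after their values were seen, were Tcf7l1, a Wnt pathway repressor, at 0.64 (0.07 by its other probe set) and the ciliogenesis factor Rfx3 at 0.17.

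Factors of lung mesenchyme outside the members were split. Of 25 listed, 20 were measured, 14 below 0 and 6 above, with a median of -0.50. Tcf21, a factor of lung fibroblasts, had 678 in TDAG8 LLC lung and 1158 in Control LLC lung, a log2 ratio of -0.72. Twist2, a factor of undifferentiated mesenchyme, had 130 in TDAG8 LLC lung and 35.1 in Control LLC lung and was 3.84-fold higher. Prrx1, a homeodomain factor of limb and craniofacial mesenchyme, had 480.2 in TDAG8 LLC lung and 159 in Control LLC lung and was 3.14-fold higher. The hedgehog effector Gli3, named with Tcf21 after values were seen, had 166 in TDAG8 LLC lung and 66.4 in Control LLC lung and was 2.60-fold higher. A second probe set of Gli3 above both floors was at 1.15, and those of Prrx1 were at 1.53 and 0.98. Tcf4, the brightest of the list, was at 0.00. None of the 4 mesenchymal members lay among the higher genes. With the floor at the 65th percentile the median of this list was -0.197.

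Genes that Nkx2-1 or Foxa factors are known to bind or drive in lung were lower as well. Of 19 listed, 16 were above the floor on both arrays and all of these were below 0, in a range from -0.65 to -0.12. Cftr was above it in Control LLC lung only, and with Cftr at its bound the median was -0.51. Scgb1a1, the club cell secretoglobin, had 8731 in TDAG8 LLC lung and 10112 in Control LLC lung, the highest intensity of each array, and a log2 ratio of -0.15. The secretoglobin gene Scgb3a1 was at -0.65 and the water channel gene Aqp5 at -0.63. Most of these genes are also markers of alveolar type 2 or club cells, so the list is not separate from those below.

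Marker lists of epithelial, endothelial and muscle cells also had medians below 0. Alveolar type 1 genes, all 14 of them below 0, had a median log2 ratio of -0.62 and a summed intensity of 17129 in TDAG8 LLC lung and 25717 in Control LLC lung. Ager, the brightest, was at -0.52, Col4a4 at -0.87 and Clic5 at -0.81. The 11 measured genes of alveolar type 2 cells were likewise all below 0, at a median of -0.48, and their sum was 26667 in TDAG8 LLC lung and 36459 in Control LLC lung. The surfactant gene Sftpc was at -0.12, Chia1 at -0.74 and Napsa at -0.58. All 10 club cell genes were below 0 with a median of -0.66, led by Cckar at -1.18 and Gabrp at -1.12. Of 11 ciliated cell genes 8 were above the floor on both arrays, all below 0, among them Tppp3 at -0.76 and Fam183b at -1.16. The other 3, Tekt2, Dnah5 and Dnaic1, were above it in Control LLC lung only, which fixes their sign, and Tekt2 was at least 2.34-fold lower. With these at their bounds the median was -0.80.

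Among markers of mesenchyme and vessels, all 13 capillary endothelial genes were below 0 with a median of -0.77, and their sum was 6304 in TDAG8 LLC lung and 11170 in Control LLC lung. Plvap was at -0.89, Clec14a at -1.07 and Robo4 at -0.91. All 11 measured smooth muscle and pericyte genes were below 0 with a median of -0.67, with Acta2 at -0.30, Myh11 at -1.16 and Notch3 at -0.97. Fibroblast genes were mixed, 7 below 0 and 5 above, with a median of -0.32, and included Inmt at -0.49, Mfap4 at -0.90 and Lum at 1.14. That median was -0.208 with the mean over probe sets and -0.0758 with plain _at probe sets only. Of 11 cardiac muscle genes 10 were below 0 with a median of -0.67, and Actc1 was at -0.71, Myh7 at -0.97 and Tnni3 at -0.93. Of 6 thyroid genes on the array, listed because Nkx2-1 also acts in thyroid, 5 were below the floor on both arrays, and Iyd was above it in Control LLC lung only.

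Other markers moved the opposite way. Every one of 13 measured genes of dividing cells was above 0 and 12 passed 2-fold. Of all measured genes 5.4% were at least 2-fold higher. The dividing cell genes had a median of 2.30 and a summed intensity of 7930 in TDAG8 LLC lung and 2455 in Control LLC lung. Bub1 was 6.52-fold higher, Kif2c 6.01-fold and Pcna 1.87-fold. The tumour-associated list was made with earlier results of these arrays known. Its 6 genes above the floor on both arrays were at least 2-fold higher, among them S100a4 at 2.13, Rhox5 at 2.72 and Fosl1 at 3.61. Its other 2, Twist1 and Igf2bp3, were above the floor in TDAG8 LLC lung only. Macrophage genes were mostly higher, 8 of 10 above 0 and 6 past 2-fold, with Lyz2 at -0.09 and Itgam at 1.73. Both counts include Msr1, which was at least 4.84-fold higher. It was above the floor in TDAG8 LLC lung only, so the floor largely sets its sign. The part of these higher genes, and that of the resident cell markers, in the lower levels of the 9 factors and the higher level of Sox9 was not tested.

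**Figure D3:**
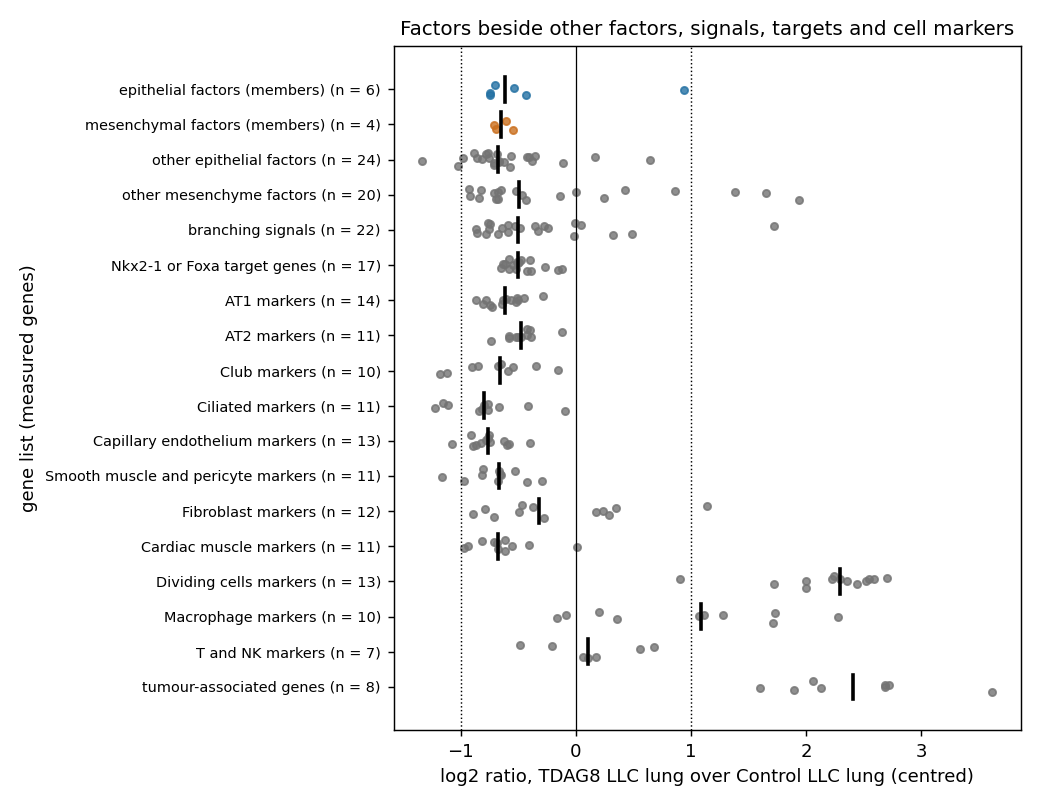
Log2 ratio of each measured gene (points; epithelial members blue, mesenchymal members orange) by list, with the median of each list as a black bar and 2-fold as dotted lines. The 9 lower factors lie among the markers of epithelial, endothelial and muscle cells, whose medians run from -0.80 to -0.48; Sox9, drawn at its lower bound, lies between those and the genes of dividing cells at 2.30.

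The direction held for every factor in each processing alternative in which it was measured. Nkx2-1 ranged from -0.804 to -0.177, the latter an upper bound, and Foxa2 from -0.805 to -0.664. Foxf1 ranged from -0.664 to -0.582 and Tbx2 from -0.749 to -0.641. Tbx5 was at -0.825 with the mean over its probe sets, its lowest value. Sox9 ranged from 0.883 to 1.81. Its value, and largely its sign, rested on the floor in every setting that measured it, except the lower floor and the offset.

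**Figure D4:**
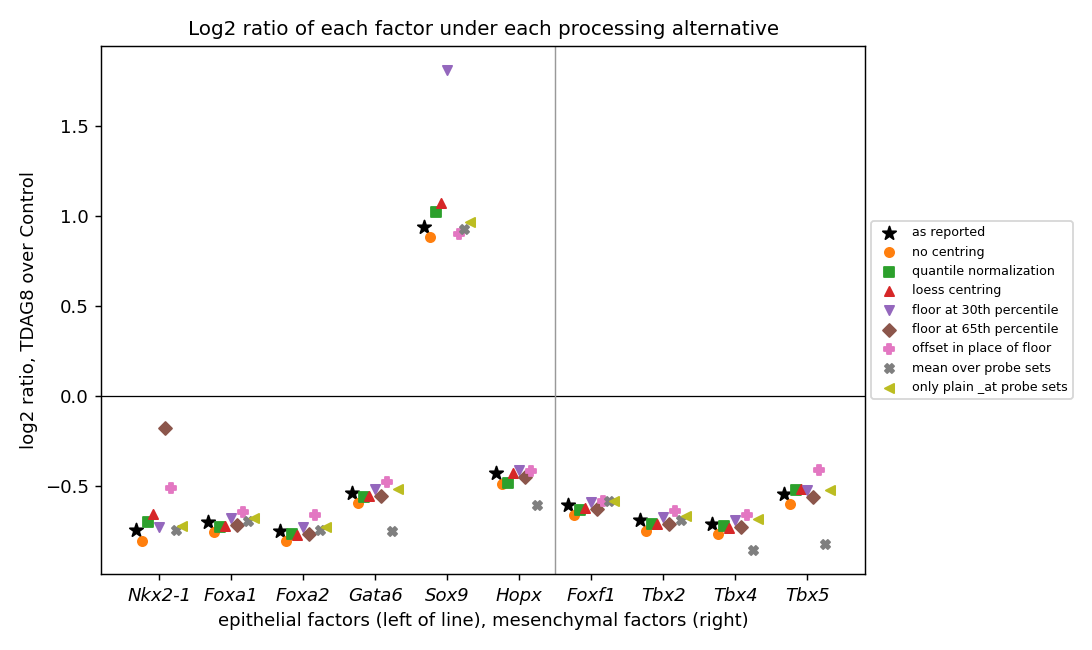
Log2 ratio of each factor (vertical axis) as reported (star) and under 8 alternatives of processing. Every value of the 9 lower factors is below 0 and every value of Sox9 above 0. The floor largely sets the sign of Sox9, except with the lower floor and the offset. The widest shifts are those of Sox9 with the lower floor, at 1.81, and of Nkx2-1 with the higher floor, at -0.177, which is an upper bound.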

How the data were processed

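Per the labels' protocols, each array read a pool of total RNA from 10 lungs, of which 2 µg was reverse transcribed from the poly(A) tail, amplified as biotin-labelled cRNA and fragmented for an Affymetrix array. The authors deposited intensity values on a linear scale, 1 per probe set, with a 2% trimmed mean near 100 on each array (99.7 on both after control probe sets are left out). How intensities were derived from scans is not stated in the labels, and no detection calls came with them.

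Of 45101 probe sets 64 controls were set aside. In the platform annotation 34945 of the rest had 1 gene symbol, 932 several and 9160 none. Those with 1 symbol were used, 34741 of them updated by gene identifier through RefSeq GRCm38.p6, giving 18193 genes. Values below the floor, the 50th percentile of each array, were raised to it. The probe set with the highest mean log2 value stood for a gene. Log2 ratios were centred by -0.06, the median of the 11017 genes that exceeded both floors. A ratio with 1 value at the floor is a bound.

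No test was run, because each group had 1 array. Precision is limited by there being only 2 arrays. The ratio calculation was tested on simulated arrays. The 10 factors, with all probe sets, were named by the rule, and from each of 18 context lists its brightest measured gene and the 2 with the largest ratios. Factors and lists were chosen with earlier results of these data known. Results were recomputed without centring, with quantile or loess (span 0.3) normalization, and with the floor moved to the 30th or 65th percentile. They were also recomputed with an offset at the 50th percentile, with the mean over a gene's probe sets, and with plain _at probe sets only, 8 alternatives in all. Python 3.11.15, pandas 2.3.3 and statsmodels 0.14.6 were used.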

Additional observations from a re-analysis of the deposited data

How the results depend on the processing

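The number of factors below 0 was 9 under 7 alternatives and 8 with plain _at probe sets, which left Hopx without one. The epithelial median ranged from -0.721 to -0.496 and the mesenchymal one from -0.757 to -0.612. The difference between them, 0.03 as reported, turned to -0.0505 with plain _at probe sets only and also, in an alternative chosen after seeing the data, without Sox9. The number of factors at least 2-fold higher was 0 as reported and 1, Sox9, after quantile normalization, after loess and with the floor at the 30th percentile. The number at least 2-fold lower was 0 in every setting. Of 128 list medians recomputed 121 moved by at most 0.25, and that of T and NK cell genes was -0.0722 under the 65th percentile floor, against 0.11 as reported. Signal near the floor limits Nkx2-1, Sox9, the third probe set of Gata6 and the dimmer one of Tbx5. No paired analysis was possible because each group had 1 array.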

Other observations

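Signals that pattern the lung bud were lower on the whole. Of 29 listed ligands, receptors and feedback genes 22 were measured, 18 below 0 and 4 above, with a median log2 ratio of -0.51. Shh, the hedgehog ligand made by lung epithelium, had 158 in TDAG8 LLC lung and 300.1 in Control LLC lung, a log2 ratio of -0.87. Pdgfra, the fibroblast receptor for platelet-derived growth factor and the brightest of the list, was at -0.27. Wnt7b, a Wnt ligand of airway epithelium, had 185 in TDAG8 LLC lung and 58.3 in Control LLC lung and was 3.30-fold higher, the only gene of the list past 2-fold. The hedgehog receptor component Smo was at 0.49. Fgf10, the mesenchymal ligand that drives branching, was below the floor in both, with 9.6 in TDAG8 LLC lung and 16.7 in Control LLC lung. Smo and Fgf10 are named after their values were seen.

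Hopx is also active in some lymphocytes. The 7 measured T and NK cell genes had a median log2 ratio of 0.11, with Cd8a at 0.68, Cd3e at 0.55 and Gzma at -0.49.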
